A study of Mus musculus with 15 samples.

Results

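The 10 genes described here encode the surfactant proteins Sftpa1, Sftpb, Sftpc and Sftpd and the lipid transporter, lamellar body, protease, acyltransferase, phosphate transporter and transcription factor genes Abca3, Lamp3, Napsa, Lpcat1, Slc34a2 and Nkx2-1. They were chosen by name, and each name matched 1 row, so that 10 of the 57010 genes in the deposited tables are members. All 10 passed the filter on low counts, as did 17630 genes in the 12 lung libraries and 17879 in all 15 libraries. The study sequenced RNA labelled as lung of C57BL/J mice, collected 30 days after silica was given as nasal drops and a dimethyl sulfoxide (DMSO) solution a day later. The 4 groups were control, given physiological saline (n = 4), DMSO alone (n = 4), silica alone (n = 3) and silica_DMSO, given both (n = 4). The labels do not give doses, age or sex, nor whether the saline and silica groups received anything in place of DMSO. They do not say that each library is a separate animal, so p-values measure the spread between libraries.

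Alveolar type 2 cells line the air sacs of the lung and make surfactant, a film of phospholipid and protein that lowers surface tension. The hydrophobic proteins Sftpb and Sftpc help phospholipid spread at the air surface, while Sftpa1 and Sftpd are collectins, soluble lectins that bind microbes and particles and take part in clearing surfactant. Lipid is loaded by Abca3 into lamellar bodies, the storage organelles of these cells, and Nkx2-1 is the transcription factor that switches on most of these genes in lung epithelium. In the GENCODE annotation of GRCm38 both of these collectin genes are on chromosome 14, with Sftpa1 at chr14:41131782-41136452 (plus strand) and Sftpd at chr14:41172214-41185149 (minus strand). Sftpc is on the same chromosome at chr14:70520949-70524081 (minus strand) and Sftpb on chromosome 6 at chr6:72304610-72314371 (plus strand). All 10 are protein-coding genes.

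Because Nkx2-1 links most of the members, the 250 bases before the transcription start are shown for both kinds of surfactant protein gene and for the regulator itself. The sequences are from RefSeq (build GRCm38.p6), which matched 7 of the 10 members. Capitals mark CAAG, the core that Nkx2-1 recognises, on either strand (CAAG or CTTG). Sftpa1 is at chr14:41131538-41131787 and Sftpb at chr6:72304360-72304609, both on the plus strand, and Nkx2-1 is at chr12:56536909-56537158 on the minus strand. Each is written along its gene.
Sftpa1: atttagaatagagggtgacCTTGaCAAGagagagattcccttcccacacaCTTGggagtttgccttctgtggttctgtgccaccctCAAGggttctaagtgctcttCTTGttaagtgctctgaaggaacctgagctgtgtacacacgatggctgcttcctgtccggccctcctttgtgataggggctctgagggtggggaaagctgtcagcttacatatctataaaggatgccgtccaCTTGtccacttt
Sftpb: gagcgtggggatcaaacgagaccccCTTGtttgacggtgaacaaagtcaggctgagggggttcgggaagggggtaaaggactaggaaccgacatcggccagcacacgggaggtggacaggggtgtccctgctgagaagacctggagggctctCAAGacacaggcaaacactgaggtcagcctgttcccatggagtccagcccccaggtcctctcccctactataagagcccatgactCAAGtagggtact
Nkx2-1: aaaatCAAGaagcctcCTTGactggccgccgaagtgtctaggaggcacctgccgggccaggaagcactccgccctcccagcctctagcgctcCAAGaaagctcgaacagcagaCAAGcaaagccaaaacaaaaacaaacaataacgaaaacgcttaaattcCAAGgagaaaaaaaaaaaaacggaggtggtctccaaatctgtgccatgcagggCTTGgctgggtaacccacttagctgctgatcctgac

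In these windows CAAG occurred 6 times before Sftpa1, 3 times before Sftpb and 6 times before Nkx2-1. It occurred 2 times before Abca3, once before Lamp3 and 0 times before Lpcat1 and Slc34a2. The core is short, and 86.6% of the 32851 promoter windows of the same length held it, with a median of 2 sites and with 3 or more sites in 37.0%. The longer CTCAAG, which contains the core, was found on either strand in 13.3% of all windows, 2 times before Sftpb and once before Sftpa1. TATAAA, searched on both strands, stood once before Sftpa1 and in 12.4% of all windows. A match is a description of the letters and not a binding site, and a window without one says only that the letters are not in it.

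Before any comparison, 3 libraries stood apart from the rest. DMSO 7, silica_DMSO 4 and silica_DMSO 6 held 5365 to 6394 CPM (counts scaled to a common library total) of a summed list of 5 thymocyte genes, against 4.585 to 18.67 in the other 12, and are called thymus-like here. The comparisons therefore use the other 12 lung libraries, with 3 DMSO and 2 silica_DMSO libraries, and values from all 15 stand beside them. Totals ran from 17434653 to 20829923 counts. A further split concerns gene length: in 5 lung libraries (control 1, DMSO 1, DMSO 4, silica 7 and silica_DMSO 5) long genes were lower and short genes higher than in the other 7, and these are called short-gene and long-gene libraries below. Every group holds at least 1 library of each class. All 10 members were present in each of the 12, where together they took 2.4% to 5.07% of all counts.

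Per unit of transcript length, the hydrophobic protein gene Sftpc stood far above the other members in the 4 control libraries. In TPM, the authors' measure that scales counts by transcript length and library, its mean was 42077 ± 4925 (SD, n = 4). The collectin Sftpa1 followed at 3274 ± 479 TPM, then Sftpb at 2036 ± 442 and Sftpd at 652 ± 305. The phosphate transporter Slc34a2 had 382 ± 167 TPM and the protease Napsa, which processes surfactant proproteins, 272 ± 49.9. Of the lamellar body membrane protein Lamp3 there were 151 ± 48.1 TPM, and of Lpcat1, an acyltransferase that remodels surfactant phosphatidylcholine, 103 ± 30.0. The lowest were Nkx2-1 at 51.4 ± 9.61 and Abca3 at 35.4 ± 19.3 TPM.

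In this order the ranges of the 4 controls overlapped between Sftpd and Slc34a2, Slc34a2 and Napsa, Lamp3 and Lpcat1, and Nkx2-1 and Abca3. Within single libraries Slc34a2 was above Napsa in 3 of 4, and each of the other neighbours kept its order in 4 of 4. In bulk RNA a lower level can come from fewer type 2 cells or from less RNA per cell, and these cannot be told apart.

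Sftpd, one of the collectins, had the largest log2 difference between silica and control of the 10 genes. Its level was 348, 766.5, 703 and 1022 CPM in controls 1, 2, 4 and 7, and 1421, 1737 and 2258 CPM in silica 1, 2 and 7. All 3 silica libraries were above all 4 controls, as was so for 5.11% of all genes by CPM. DMSO 1, 4 and 6 had 1215, 1510 and 868 CPM, and silica_DMSO 2 and 5 had 1411 and 1624 CPM. DMSO overlapped both neighbours, with DMSO 6 inside the control range and DMSO 4 above silica 1, and both silica_DMSO libraries were above the controls. Per length, Sftpd stood at 1431 to 1552 TPM in silica, at 209 to 898 TPM in control and at 682 to 765 TPM in the DMSO lung libraries. Silica_DMSO 2 and 5 had 1378 and 702 TPM, so that silica_DMSO 5, above the controls by CPM, was inside their range by TPM.

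The test did not call this difference. Sftpd was 1.41 ± 0.53 log2 (SE) higher in silica than in control by edgeR's quasi-likelihood test (Benjamini-Hochberg adjusted p = 0.693 over all genes), and 1.44 ± 1.21 in the fit of all 15 libraries (adjusted p = 1). Between DMSO and control it was 1.21 ± 0.53 (adjusted p = 0.513). These contrasts share the control libraries, and control 1 was the lowest of all 12 lung libraries for Sftpd, without which the silica difference was 1.24 (adjusted p = 0.964). Within the 7 long-gene libraries, an alternative chosen after seeing the data, the silica difference was 0.94 ± 0.30 (adjusted p = 0.300) and the DMSO difference 0.09 ± 0.38 (adjusted p = 1), the latter with DMSO 6 as its single treated library.

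**Figure D1:**
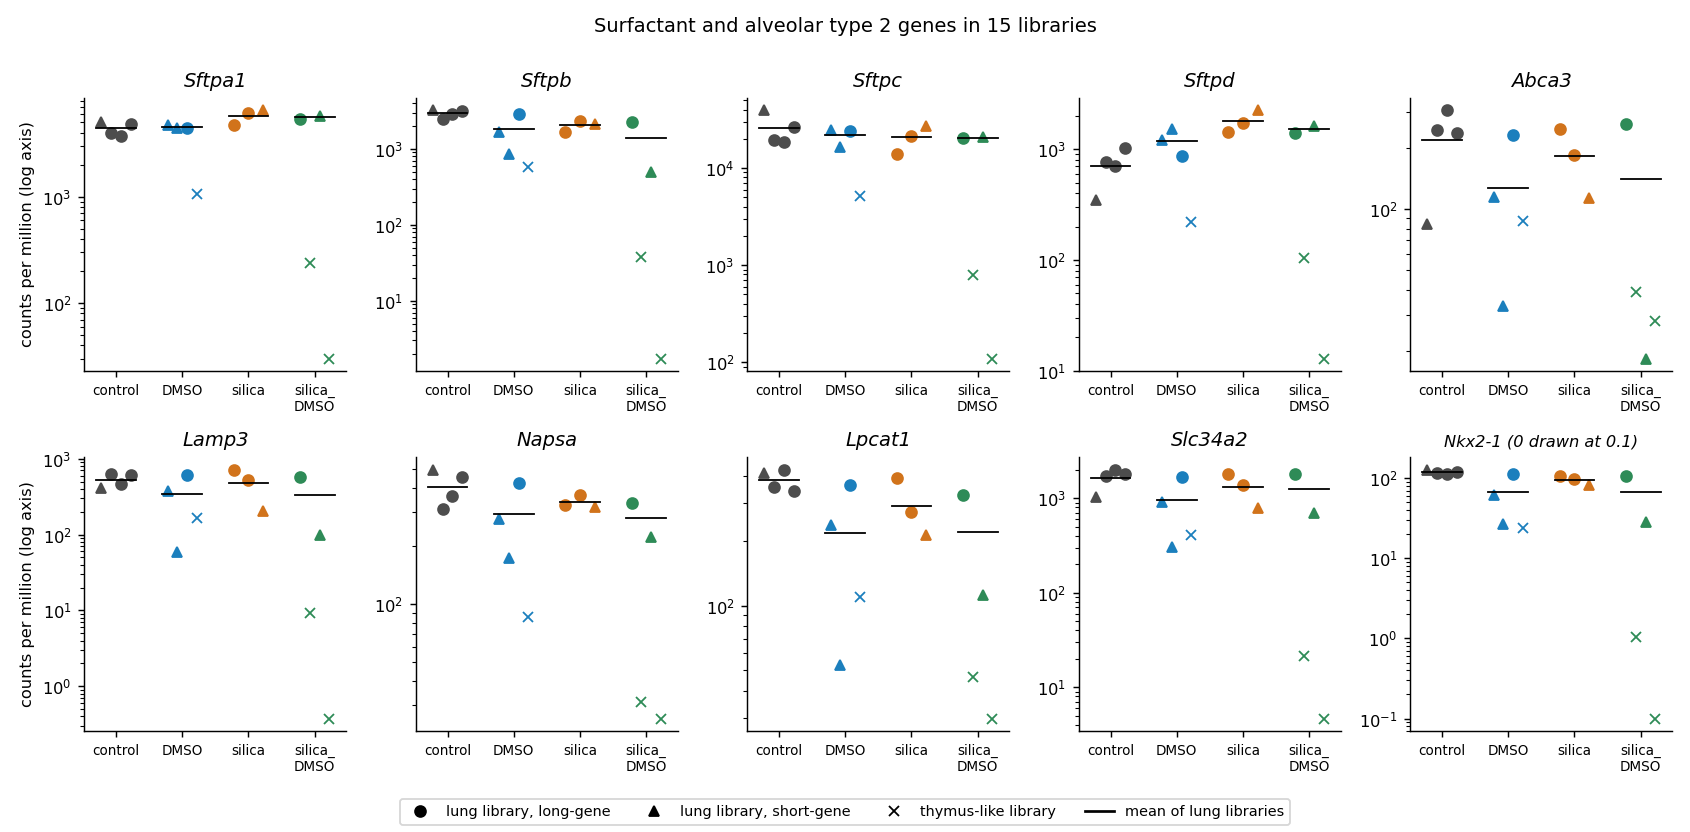
Level in CPM (log axis) of each of the 10 genes in the 15 libraries by group. Each symbol is 1 library (circles long-gene and triangles short-gene lung libraries, crosses thymus-like libraries) and bars are means of the lung libraries. In the Sftpd panel the 3 silica libraries (1421 to 2258) lie above the 4 controls (348 to 1022), as for 5.11% of all genes. Crosses are at or near the bottom of most panels.

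Sftpa1, the other collectin, did not separate in the same way. Controls 1, 2, 4 and 7 had 5085, 3951, 3760 and 4800 CPM, and silica 1, 2 and 7 had 4721, 6167 and 6520 CPM. Silica 1 lay inside the control range while the other two silica libraries were above it. DMSO 1, 4 and 6 had 4704, 4384 and 4429 CPM and silica_DMSO 2 and 5 had 5399 and 5752 CPM. With 3760 to 6520 CPM, Sftpa1 had the narrowest range of the 10 genes over the lung libraries, 1.73-fold. Its difference was 0.39 ± 0.50 log2 for silica against control (edgeR adjusted p = 1) and 0.35 ± 0.50 for DMSO against control (adjusted p = 0.722).

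Of the hydrophobic proteins, Sftpb was lower in every silica library than in any control by CPM, as were 4.25% of all genes. Its level was 3233, 2489, 2876 and 3168 CPM in controls 1, 2, 4 and 7, and 1670, 2352 and 2118 CPM in silica 1, 2 and 7. The gap closed on other scales: TMM-normalised CPM overlapped, and by TPM silica 2 (1598) was above control 1 (1553). DMSO 1, 4 and 6 had 1671, 867 and 2905 CPM and silica_DMSO 2 and 5 had 2259 and 494 CPM. The long-gene library DMSO 6 was in the control range, and the short-gene libraries DMSO 4 and silica_DMSO 5 were the lowest of the 12. The edgeR difference was -0.53 ± 0.44 log2 in silica (adjusted p = 1) and -0.54 ± 0.44 in DMSO (adjusted p = 0.569).

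Sftpc gave no separation between groups. Controls 1, 2, 4 and 7 had 39513, 19262, 18378 and 26701 CPM, and silica 1, 2 and 7 had 13855, 21237 and 26898 CPM. Control 1 was the highest and silica 1 the lowest of the lung libraries, with the rest intermixed. DMSO 1, 4 and 6 had 24880, 16579 and 24332 CPM and silica_DMSO 2 and 5 had 20439 and 20689 CPM. The differences were -0.35 ± 0.63 log2 for silica (edgeR adjusted p = 1) and -0.02 ± 0.63 for DMSO (adjusted p = 0.989).

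The lipid and lamellar body genes varied widely within groups, and the silica and control libraries overlapped for each. Abca3 was at 84.3, 243, 305 and 235 CPM in controls 1, 2, 4 and 7, at 114, 33.5 and 230 in DMSO 1, 4 and 6, at 247, 184 and 113 in silica 1, 2 and 7, and at 261 and 18.4 in silica_DMSO 2 and 5. The low library of each group was a short-gene one. Lamp3 followed with 406, 632, 463 and 617 CPM in control, 376, 58.6 and 608 in DMSO, 717, 529 and 206 in silica, and 567 and 97.9 in silica_DMSO, in the same library order. Slc34a2, which carries phosphate into type 2 cells, had 1034, 1701, 2002 and 1807 CPM in control, 916, 303 and 1678 in DMSO, 1820.5, 1380 and 784 in silica, and 1800 and 692 in silica_DMSO. For these 3 genes every short-gene library was below every long-gene library by CPM. The classes were set from gene length over all genes, and the share of all genes separated in this way was not computed. Silica differed from control by -0.26 ± 0.60 log2 for Abca3, -0.20 ± 0.56 for Lamp3 and -0.33 ± 0.43 for Slc34a2 (edgeR adjusted p = 1 for each).

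Lpcat1 and Napsa ran between these patterns. Lpcat1 had 410, 355, 427 and 340 CPM in controls 1, 2, 4 and 7, 236, 53.1 and 363 in DMSO 1, 4 and 6, 390, 271 and 212 in silica 1, 2 and 7, and 326 and 112 in silica_DMSO 2 and 5. Napsa had 499, 311, 362 and 459 CPM in control, 277, 173 and 427 in DMSO, 328, 369 and 321 in silica, and 335 and 223 in silica_DMSO. Both overlapped between silica and control, and for both DMSO 4 was the lowest lung library. Their differences were -0.45 ± 0.41 and -0.30 ± 0.34 log2 for silica (edgeR adjusted p = 1 for both), and -0.71 ± 0.41 and -0.29 ± 0.34 for DMSO (adjusted p = 0.513 and 0.663).

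Nkx2-1, the regulator, was tightly grouped in control, at 127, 115, 113 and 118 CPM in controls 1, 2, 4 and 7. Silica 1, 2 and 7 had 107, 97.0 and 81.5 CPM, DMSO 1, 4 and 6 had 61.9, 26.5 and 112 CPM, and silica_DMSO 2 and 5 had 105 and 28.0 CPM. By CPM all 8 treated lung libraries were below the 4 controls, although DMSO 6 (111.7) was close to control 4 (112.9). Of all genes, 4.25% were lower without overlap in silica and 4.3% in DMSO. The share for all 8 treated libraries together was not computed. On TMM-normalised CPM, which the test uses, DMSO 6 (95.96) was above control 4 (93.2), and the DMSO and control groups overlapped. Per length the groups overlapped, at 39.3 to 62.8 TPM in control and 26.2 to 57.3 TPM in silica. The edgeR difference was -0.35 ± 0.32 log2 in silica (adjusted p = 1) and -0.69 ± 0.32 in DMSO (adjusted p = 0.513).

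Across the list, 0 of 10 members were called in silica against control, where edgeR called 2 of 17630 genes (0.0113%). In DMSO against control, in silica_DMSO against silica and in the interaction of silica and DMSO, 0 of 10 members and 0% of all genes were called, and the same held for all 4 contrasts in the fit of 15 libraries (0% each). At an unadjusted p under 0.05 the 12-library fit held 1055, 1519, 342 and 485 genes in these 4 contrasts, of which 1, 1, 0 and 0 were members, Sftpd both times. By CPM, Sftpd was the 1 member higher in silica without overlap (5.11% of all genes) and Sftpb and Nkx2-1 were the 2 lower without overlap (4.25%). On TMM-normalised CPM these were Sftpd (5.41% of genes) and Nkx2-1 (5.19%). In DMSO, by CPM, 0 members were higher without overlap (2.54% of genes), and Nkx2-1 was lower (4.3%).

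The median log2 difference of the members was -0.317 in silica against control (all genes -0.0304), with 2 positive and 8 negative signs. For DMSO it was -0.519 (all genes -0.0399), again with 2 positive signs, those of Sftpd and Sftpa1 in both comparisons. In the fit of 15 libraries the medians were -0.288 and -0.747. With the 7 long-gene libraries alone the DMSO median was 0.074.

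The call rule of another tool gave a different count. With limma-voom and quality weights, which give deviating libraries less influence, 7.69% of all genes were called in silica against control and 48.2% in DMSO against control. Of the members it called Sftpd in the first (1.14 ± 0.235 log2, adjusted p = 0.0134). In the second it called 5, Sftpd higher (0.82) and Sftpb (-0.51), Abca3 (-0.82), Slc34a2 (-0.70) and Nkx2-1 (-0.64) lower, which as 5 of 10 is near the share of all genes.

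**Figure D2:**
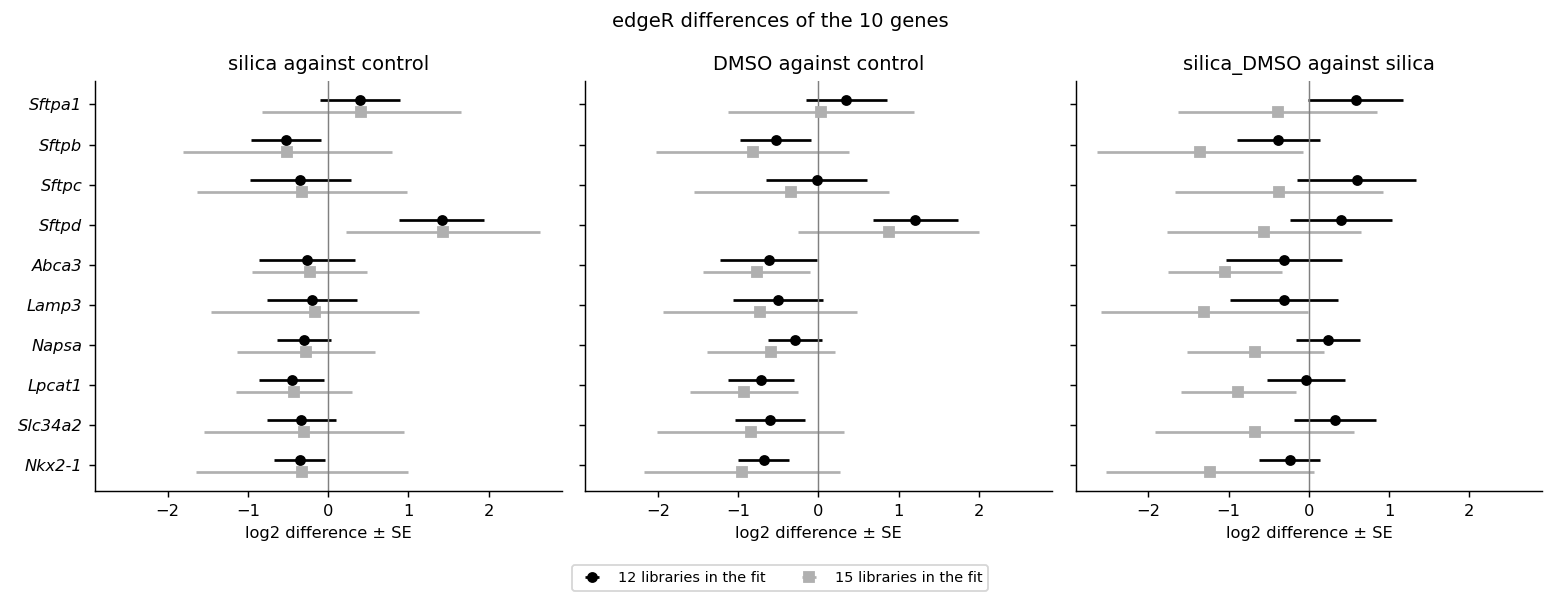
Log2 differences of the 10 genes with their standard errors from edgeR, for 3 contrasts, in the fit of 12 lung libraries (black circles) and of all 15 libraries (grey squares). Sftpd lies furthest to the right in silica against control (1.41 and 1.44), and the grey squares of silica_DMSO against silica are all below 0.

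Silica_DMSO was set against silica to ask whether DMSO after silica moved these genes. In the 12 lung libraries the members' differences ran from -0.38 (Sftpb) to 0.60 log2 (Sftpc), 5 in each direction, with a median of 0.0997 against -0.0157 for all genes and a smallest adjusted p of 0.997. The silica_DMSO group then had 2 libraries, the long-gene silica_DMSO 2 and the short-gene silica_DMSO 5. Silica_DMSO 2 lay within the silica range of CPM for 8 of the 10 genes, just below it for Sftpd (1411 against 1421) and above it for Abca3 (261 against 247). In the fit of 15 libraries all 10 differences were negative, from -1.36 (Sftpb) to -0.37 (Sftpc), with a median of -0.776 and a smallest adjusted p of 0.708. The thymus-like silica_DMSO 4 and silica_DMSO 6 enter that fit.

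The interaction, which asks whether the silica difference depends on DMSO, had a median of 0.376 log2 over the members (all genes 0.0738). It ranged from -0.81 ± 0.84 for Sftpd to 0.92 ± 0.67 for Slc34a2, with an adjusted p of 1 for each. With all 15 libraries the median was -0.276.

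Ratios of 2 members within a library do not depend on library scaling, and 2 of them were picked after the values were seen, so they are given without a test. Sftpc relative to Sftpa1, in TPM, was 11.6, 13, 12.7 and 14.4 in controls 1, 2, 4 and 7. It was 8.09, 8.87 and 8.71 in silica 1, 2 and 7, below all controls and in both length classes. Silica_DMSO 2 and 5 were at 9.74 and 6.06, also below the controls. DMSO 1 and 6 were in the control range at 13.1 and 14.2, and DMSO 4 was at 8.44 beside the silica libraries.

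Sftpd relative to Sftpb was 0.135, 0.387, 0.309 and 0.407 in the controls and 1.07, 0.938 and 1.34 in silica 1, 2 and 7. Silica_DMSO 2 and 5 were at 0.79 and 4.12. DMSO 6 (0.377) was in the control range, whereas the short-gene DMSO 1 (0.92) lay just below the silica libraries and DMSO 4 (2.2) above them. Both ratios therefore separated the 3 silica from the 4 control libraries, and neither separated DMSO from control. By CPM, Sftpd (higher) and Sftpb (lower) each already separated silica from control, so their ratio is not a separate result. Other ratios were also computed. Sftpa1 to Sftpb (1.26 to 2.51 in control, 2.58 to 3.5 in silica) and Sftpd to Sftpa1 (0.0537 to 0.277 and 0.36 to 0.414) did not overlap either. Each of these holds Sftpb or Sftpd again and is not independent of their levels. Sftpc to Sftpb and Sftpc to Abca3 overlapped. How often ratios of other genes separate silica from control was not computed. For Sftpc relative to Sftpa1 the thymus-like libraries had 12.7 (DMSO 7), 6.76 (silica_DMSO 4) and 5.91 (silica_DMSO 6). This placed DMSO 7 within the control range and the other thymus-like libraries below it.

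**Figure D3:**
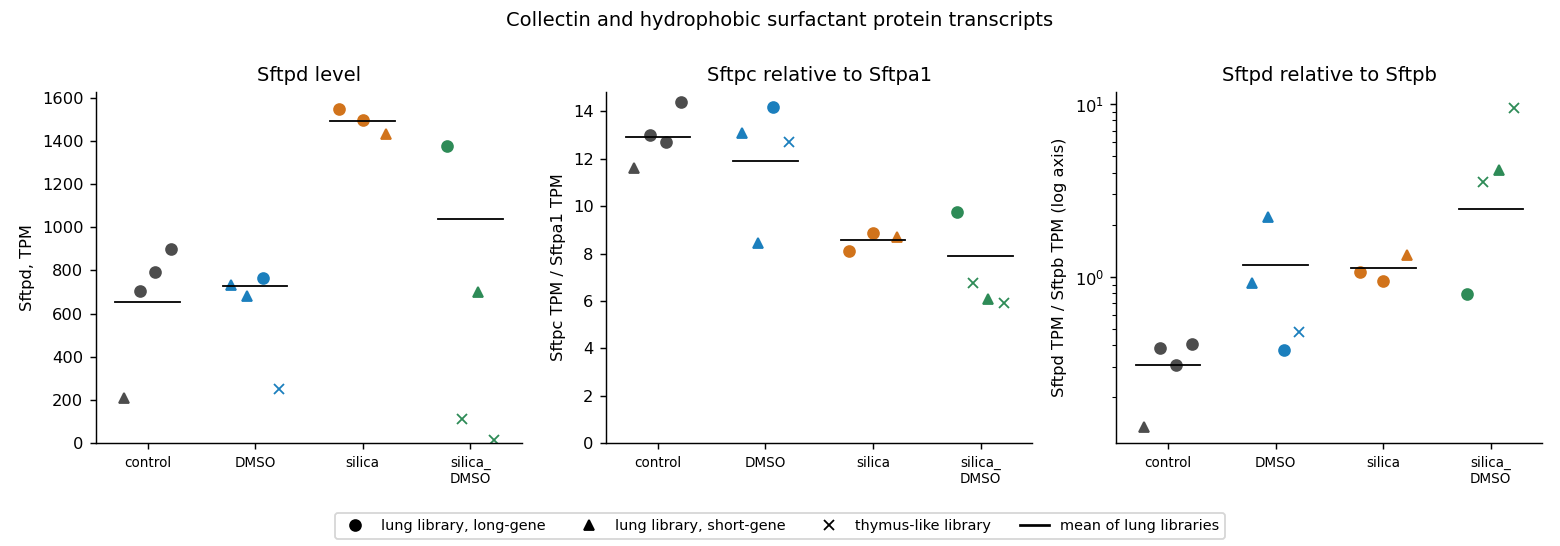
Sftpd level in TPM (left), the ratio of Sftpc to Sftpa1 TPM (middle) and the ratio of Sftpd to Sftpb TPM (right, log axis) in each library by group, with bars at the mean of the lung libraries. The silica libraries lie at 8.09 to 8.87 in the middle panel, below the controls at 11.6 to 14.4.

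With the groups pooled, the levels in the lung libraries differed with the length class of the library, and by member. The log2 ratio of the median CPM in the 5 short-gene to that in the 7 long-gene libraries was -1.53 for Abca3, the longest member at 6380 bases, -1.56 for Lamp3 (3356 bases) and -1.2 for Slc34a2 (4176 bases). It was -0.85 for Nkx2-1, -0.741 for Lpcat1, -0.575 for Sftpb and -0.39 for Napsa. The ratio was positive for Sftpa1 (0.107), Sftpc (0.284) and Sftpd (0.563), among them the shortest members, Sftpc at 792 and Sftpd at 1275 bases. The median of these ratios was -0.658 over the members and -0.472 over all genes tested. On TMM-normalised CPM the medians were -0.358 and -0.0361, and there the sign of Napsa turned to 0.161 while the other 9 members kept theirs. The classes were set from all genes, the members included, so these values are a description. Sftpa1, at 2854 bases, was near 0 by CPM while Nkx2-1, at 2809 bases, was not. The classes hold different mixes of groups, and within the controls not every member followed its pooled ratio. In the short-gene control 1, Sftpd was the lowest of the controls by CPM, and Sftpb, Napsa and Nkx2-1 were the highest. Sftpa1 and Sftpc were also highest there and Abca3, Lamp3 and Slc34a2 lowest, as in their ratios, with Lpcat1 inside the range.

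**Figure D4:**
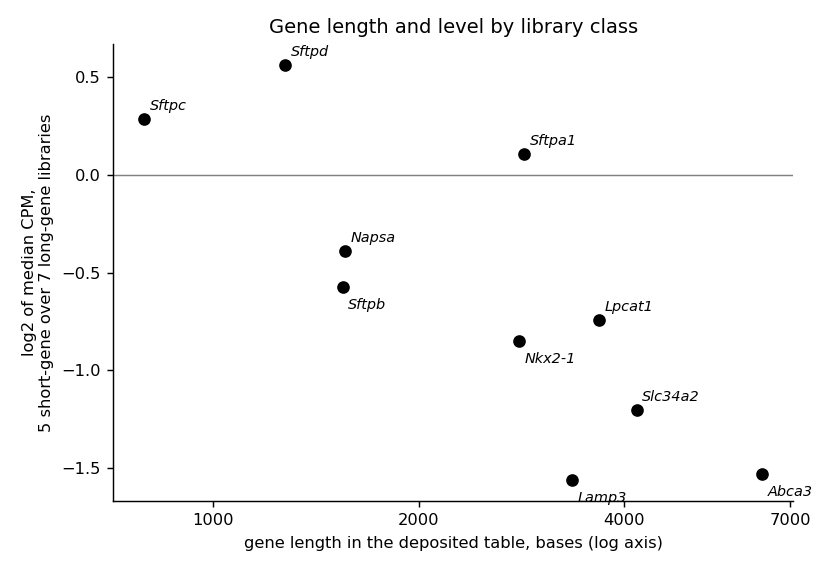
Gene length in the deposited table (bases, log axis) against the log2 ratio of median CPM in the 5 short-gene to the 7 long-gene lung libraries, 1 point per gene. Sftpc and Sftpd, the 2 shortest, are above 0, and Abca3, Lamp3 and Slc34a2 are lowest at -1.2 and below.

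Other genes of the same cells and pathway, from lists drawn up with earlier results of these data known, gave 0 calls by edgeR in each of the 4 contrasts with 12 libraries. Signs of the differences are counted here whether or not a gene was called, and over all genes 53% were negative in silica and 52.2% in DMSO. Of 14 other alveolar type 2 markers, 7 had a higher and 7 a lower sign in silica (median -0.05 log2). Their summed level was 3468 to 4630 CPM in control, 5170 to 5814 in silica, 3162 to 4382 in DMSO and 3475 to 4847 in silica_DMSO. The silica sums were thus above the control sums, although the signs were evenly split. Chil1, a chitinase-like protein, had the smallest p among them, with 838 to 1161 CPM in the 4 controls and 1999 to 2671 CPM in the 3 silica libraries. Its silica and control levels did not overlap, as was so for 5.11% of all genes higher in silica by CPM. Its difference was 1.20 ± 0.42 log2 (edgeR adjusted p = 0.647), and its level is part of the sum above. Acoxl had the next smallest p and the opposite sign, at -1.72 ± 0.62 log2 (edgeR adjusted p = 0.662). Chil1 was at 1820 CPM in silica_DMSO 2 and at 1020 CPM, inside the control range, in silica_DMSO 5.

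Among 7 other epithelial regulators 4 signs were up and 3 down in silica (median 0.05), with Gata6 of smallest p at -0.33 ± 0.30 (adjusted p = 1). The 13 genes of surfactant lipid synthesis had 5 signs up and 8 down, led by the fatty acid elongase Elovl6 at -0.30 ± 0.26 (adjusted p = 1). The 12 genes of lamellar bodies and surfactant turnover had 9 up and 3 down (median 0.15). Among them Dmbt1, a scavenger receptor protein that binds Sftpd, had the smallest p, at 4.50 ± 1.80 log2 (adjusted p = 0.755) in silica and 6.78 ± 1.89 (adjusted p = 0.513) in DMSO. Its level was near 0 in most libraries: 0 to 0.271 CPM in the controls, 6.22, 0.115 and 0.960 CPM in silica 1, 2 and 7, and 0.921, 18.3 and 0.0514 CPM in DMSO 1, 4 and 6, so 1 library of each treated group carried most of it. In DMSO against control these lists had 5 of 14, 4 of 7, 3 of 13 and 4 of 12 signs up. Of the type 2 markers Lgi3 had the smallest p, at -0.82 ± 0.39 (edgeR adjusted p = 0.513). Ctsh had the next smallest p and the opposite sign, at 1.13 ± 0.54 (edgeR adjusted p = 0.513).

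The lists of other lung cells, in which 0 genes were called, are given by signs and medians, and their part in the results was not tested. All 8 alveolar type 1 genes had a lower sign in silica (median -0.63 log2) and in DMSO (median -0.81), with the type 1 regulator Hopx at -0.72 ± 0.41 in silica (adjusted p = 0.967). Their summed level was 3534 to 5927 CPM in control, 2728 to 3011 in silica, 745.7 to 4060 in DMSO and 1013 to 3717 in silica_DMSO. All 5 endothelium genes also had a lower sign, in silica (median -0.94) and in DMSO (median -0.92), with the VEGF receptor gene Kdr at -1.09 ± 0.73 in silica (adjusted p = 1), and summed to 1730 to 3211 CPM in control and 998.4 to 1699 in silica. All 4 leukocyte genes had a higher sign in silica (median 0.52), with sums of 476.2 to 823 CPM in control and 681.7 to 1258 in silica. The 4 club cell genes had a higher sign in silica (median 0.30) and in DMSO (median 1.45), where Scgb3a1 was at 4.26 ± 1.34 (edgeR adjusted p = 0.513). Their sum was 96360 to 149000 CPM in the 5 short-gene and 10360 to 58000 in the 7 long-gene lung libraries, without overlap. The share of all genes that separate the classes was not computed. For endothelium these classes summed to 225.5 to 1730 and 1190 to 3211 CPM, and for type 1 to 745.7 to 5927 and 2755 to 4397. DMSO 1, DMSO 4 and control 1 are short-gene, and the part of length class in these signs was not tested. Of the 6 general epithelium genes 4 signs were up in silica and 5 in DMSO (median 0.73). Their sums were 718.1 to 933.3 CPM in control and 609.2 to 1130 in silica. Signs were mixed for the 7 fibroblast genes, with 4 up in silica (median 0.13) and 3 in DMSO (median -0.41). Of the 6 B cell genes 3 were up in silica (median 0.03) and 4 in DMSO (median 0.28). Of the 7 alveolar macrophage genes 5 were up in silica, led by the scavenger receptor Marco at 2.02 ± 0.50 (edgeR adjusted p = 0.348). Napsa is also made in kidney tubule, and 4 kidney tubule genes summed to 10.17 to 79.73 CPM in the lung libraries. Lamp3 also marks mature dendritic cells, of which 5 of 6 genes had a higher sign in silica, led by Ccl22 at 1.35 ± 0.29 (adjusted p = 0.213), and their sum reached 220.4 CPM in lung libraries.

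In the thymus-like libraries the members were far lower. They took 0.782% of counts in DMSO 7, 0.132% in silica_DMSO 4 and 0.0241% in silica_DMSO 6. Relative to the mean of the 12 lung libraries, the median member was at 26.4%, 4.14% and 0.538%. Below every lung library were 5, 9 and 9 of the 10 members, against 12%, 16.5% and 20.1% of all genes. The libraries were marked from earlier results on all genes, so these shares are a description.

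The members were not lower by one common factor. Sftpa1 was at 1051, 239 and 29.9 CPM in DMSO 7, silica_DMSO 4 and silica_DMSO 6, which is 21.1%, 4.81% and 0.601% of the lung mean, and Sftpc was at 22.4%, 3.47% and 0.474%. Sftpd kept 17.8%, 8.41% and 1.03%. Sftpb, Lamp3 and Nkx2-1 were the lowest in silica_DMSO 6, with 1.71 CPM, 0.375 CPM (7 counts) and 0 counts. A count of 0 allows up to 0.161 CPM of Nkx2-1 (3 counts of the library's total, counting error only).

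Abca3, Lpcat1 and Napsa had the highest shares in silica_DMSO 4 and silica_DMSO 6, which did not hold for Napsa in DMSO 7. Abca3 was at 87.5, 39.2 and 28.1 CPM, or 50.8%, 22.8% and 16.3% of the lung mean, Lpcat1 at 37.6%, 15.95% and 10.3%, and Napsa at 25.2%, 9.05% and 7.47%. Abca3 was above the lowest lung library, silica_DMSO 5 at 18.4 CPM, in all 3. The part of thymus or other cells in these levels was not tested. General epithelium genes summed to 617.6 to 1022 CPM in the 3 libraries, within the lung range of 541.1 to 1130 CPM, while the thymic epithelium list summed to 754.7 to 1523 CPM against 1.554 to 6.836 in lung.

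**Figure D5:**
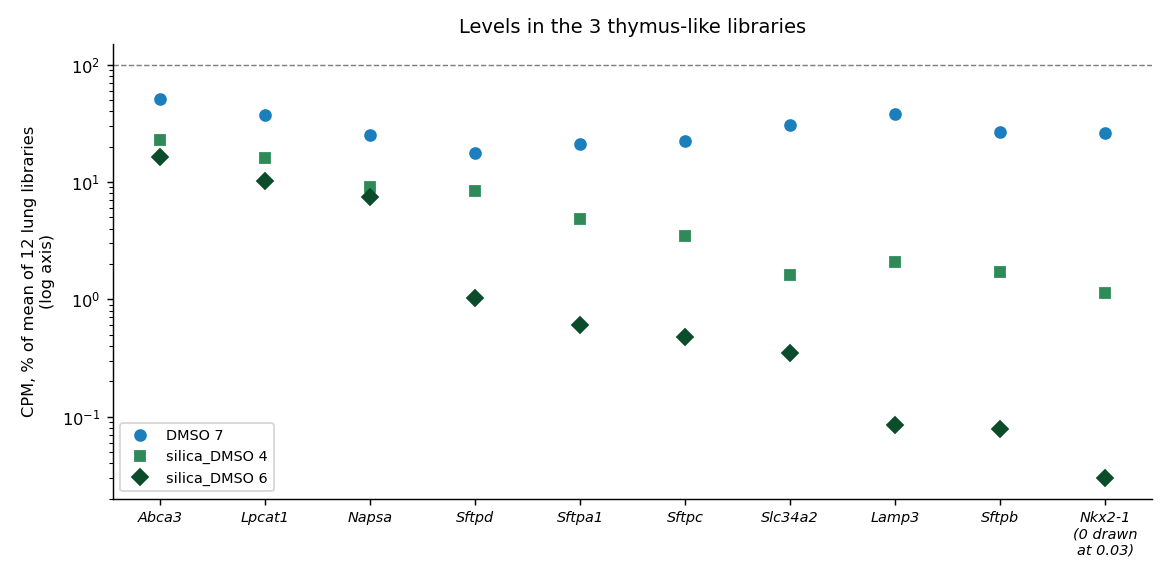
Level of each member in the 3 thymus-like libraries as a percentage of its mean CPM over the 12 lung libraries (log axis, dashed line at 100%). DMSO 7 lies between 17.8% and 50.8%, and silica_DMSO 6 runs from 16.3% for Abca3 down to 0 for Nkx2-1, drawn at the bottom.

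Genes that ran most like the members over the 15 libraries were ranked by the root mean square difference of centred log2 CPM from the members' mean profile, among 10168 genes. The nearest 5 were Plekhd1 (0.247), Mal2 (0.32), Irx2 (0.333), Irx5 (0.355) and Irx1 (0.362), where Irx genes are homeobox transcription factors. For the members themselves the same measure, with each member part of the mean, ran from 0.563 for Slc34a2 to 1.43 for Abca3. The profile is set mostly by the 3 thymus-like libraries, at -0.81, -3.46 and -5.91 log2 from its centre, and in the lung libraries it ran from -0.418 in DMSO 4 to 1.3 in control 7. The points share library composition and depth, and the likeness is a description.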

How the data were processed

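RNA was sequenced from 15 lung-labelled libraries. The authors deposited expected counts per gene, per the file headers (7.52% to 10.0% of a library's values carry a fraction), and, in another file, TPM of their own making, per the file headers. Both carry the authors' gene length in bases and 8 columns of the authors' group means, which were not used. Bowtie 0.12.2 and build mm8 are named in the submitters' processing notes and could not be checked. The counting program was given neither in those notes nor in the labels. The labels' extraction protocol speaks of retinas and names an Illumina TruSeq kit.

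Counts were rounded (largest change of a library's total 53.9 counts), filtered with filterByExpr (smallest count 10, smallest total 15), scaled by TMM and tested with edgeR's quasi-likelihood test (robust) on 4 group means, with Benjamini-Hochberg adjustment over all genes and a threshold of 0.05. Groups came from the labels, and silica, DMSO, silica_DMSO against silica and the interaction were the contrasts. CPM are of the library total, and levels of different genes were compared in TPM. The scripts, tested on simulated data, used DESeq2 1.42.0, limma 3.58.1 and edgeR 4.0.16 under R 4.3.3, and read files with the package data.table (1.17.8). Figures were drawn in Python 3.11.15 with matplotlib 3.10.9. Gene positions came from the GENCODE annotation of GRCm38, and promoter windows from RefSeq.

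A lung library was called short-gene where its deviation in log2 CPM from the median library correlated negatively with log2 gene length. The likeness ranking took genes averaging 10 CPM or more over the lung libraries. Named are the 10 members, for most lists described the gene or genes of smallest p in a comparison, and the 5 genes most like the members. The leading genes of some lists are left out. Not all genes of the lists are reported here. The members, the 17 lists of 118 genes, the thymus-like mark and most tests were chosen with earlier results of these data known. Same-numbered lung libraries of different groups correlated at -0.457 to 0.386 (8 pairs) once group means were taken out. Differently numbered libraries were not correlated, so this range cannot decide whether the numbers are pairs, and they were not taken as such.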

Additional observations from a re-analysis of the deposited data

Results flagged for a closer look

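Among the 30 sets of 4 libraries of one group (10 members in control, DMSO and silica_DMSO), 2 held a library whose gap to its nearest neighbour, as a share of the set's range, was above Dixon's 95% critical value, and chance flags about 1 in 20. Sftpa1 in DMSO had its lowest value, 1051 CPM, in the thymus-like DMSO 7, with the other three DMSO libraries at 4384 to 4704 CPM. Abca3 in silica_DMSO had its highest value, 261 CPM, in silica_DMSO 2, the only long-gene lung library of that group, with the other three at 18.4 to 39.2 CPM.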

How the results depend on the processing

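With edgeR, DESeq2 and limma on log2 TPM, 0 members were called in any contrast under any alternative; limma-voom with quality weights called 1 in silica against control and 5 in DMSO against control. Sftpd in silica against control kept its sign in 25 of 25 alternatives (0.939 to 1.64 log2; adjusted p 0.0134 to 1) and was 1.07 without silica 7. Signs of members changed in 3 of 250 values for silica, 11 of 250 for DMSO, 43 of 250 for silica_DMSO against silica and 30 of 240 for the interaction, and no called value reversed. The members' median for silica against control ran from -0.419 to -0.172. For DMSO against control it was -0.903 with the replicate block, 0.074 in the long-gene libraries alone (added after seeing the data), and -1.36 and -1.42 on log2 TPM with pseudocounts of 1 and 0.1. For silica_DMSO against silica it was -0.776 with all 15 libraries and -0.785 and -0.802 on log2 TPM. For the interaction it was -0.276 with all 15 libraries, 1.04 with the replicate block and -0.0244 in the long-gene libraries alone. The cause of these shifts was not tested.

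Leaving out 1 library at a time gave medians of -0.367 to -0.22 (silica), -0.903 to -0.221 (DMSO), 0.00166 to 0.118 (silica_DMSO against silica) and 0.228 to 0.685 (interaction), with 0 members called each time. The replicate block on the label number, whose numbers were not taken as pairs, changed no call and gave medians of -0.419 for silica and 0.144 for silica_DMSO against silica. DESeq2 called 150 and 60 genes in silica and in DMSO against control, against 2 and 0 with edgeR, and limma-voom 1356 and 8506. The interaction was not refitted on the groups compared alone, since it needs all 4. Silica_DMSO rests on 2 lung libraries, and the members' median standard error there was 0.557 log2, which limits the differences that can be detected.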
